A study of Mus musculus with 6 samples.

Results

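The high-glucose-only regions were stretches of open chromatin that held an ATAC-seq peak in each of 3 libraries of cells kept in high glucose and in neither of 2 libraries of cells kept in normal glucose, once all 5 peak lists had been brought to the same length. They were chosen by the measured peak ranks: in each library the 22149 peaks with the highest −log10 p were kept, peaks of all libraries that overlapped by at least 1 bp were merged, and the merged regions with this pattern were taken. There were 359 of them among 37553 merged regions, which is 0.956% of all regions. The opposite pattern, a peak in both normal-glucose libraries and in no high-glucose library, was met by 608 regions, or 1.62%. These counts follow from the choice and carry no test.

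The cells were an immortalised line of atrioventricular cushion mesenchyme from mice with the H-2Kb-tsA58 transgene, which encodes a temperature-sensitive large T antigen, and high- and normal-glucose libraries shared this background. High-glucose cells had 25 mM glucose for 48 h and normal-glucose cells 5.5 mM for the same time, and all libraries came from passage 6, with 54000 cells in each. There were 3 libraries per condition, and the labels do not say that replicates were separate cultures. The study addresses how maternal diabetes relates to congenital heart disease, with a cultured line standing in for the embryonic cushion.

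The tissue label was read against open gene starts. Of 12 cushion mesenchyme genes, 10 had a peak at a start in all 5 libraries, among them Snai2, Sox9, Tbx20 and Vim, and the 2 others were Twist1 and Postn. None of 5 endothelial, 5 cardiomyocyte or 4 epithelial marker genes did, and of 4 blood genes 1 did, Spi1. Of all protein-coding genes, 35.3% had such a peak. Longer lists were less clear-cut, with 30 of 57 cushion and valve genes and 17 of 37 mesenchymal and fibroblast genes. They had 0 of 21 endothelial, 2 of 20 cardiomyocyte, 1 of 20 blood and 4 of 18 epithelial and mesothelial genes.

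Atrioventricular cushion mesenchyme arises when endocardial cells lose their epithelial form, invade the cardiac jelly and build the tissue from which valves and septa are shaped. ATAC-seq reads chromatin opening with a transposase that cuts where nucleosomes leave DNA bare, mostly at promoters and enhancers. A peak is a place where cuts pile up beyond the local background, so its absence from a list means that the pile-up missed a threshold, not that the site was closed.

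The lists differed in length before they were brought level. The high-glucose lists held 22149, 25013 and 22589 peaks on the nuclear chromosomes in replicates 1, 2 and 3, against 24255 in normal-glucose replicate 1 and 40342 in normal-glucose replicate 3. Normal-glucose replicate 2 held 52 and was not used to choose the regions; none of the 359 regions overlapped a peak of it. The weakest peak still counted had a −log10 p of 4.02, 6.38 and 5.14 in high-glucose replicates 1, 2 and 3, against 6.05 in normal-glucose replicate 1 and 9.57 in normal-glucose replicate 3. The level at which a peak counted as present was thus highest in normal-glucose replicate 3, where 45.1% of the list lay beyond the equal length.

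Promoter sequences show what kind of DNA the strongest regions covered. Printed are the 6 highest-ranked regions that overlapped a promoter, and that of Psmb5, which was added after its values were seen because no normal-glucose library held a peak there at any rank. Each runs 5′ to 3′ along its gene, from 250 bases before to 50 after the start, as RefSeq gives it on GRCm38.p6, whose coordinates are those of mm10. Capitals mark the bases inside the high-glucose-only region.
Harbi1: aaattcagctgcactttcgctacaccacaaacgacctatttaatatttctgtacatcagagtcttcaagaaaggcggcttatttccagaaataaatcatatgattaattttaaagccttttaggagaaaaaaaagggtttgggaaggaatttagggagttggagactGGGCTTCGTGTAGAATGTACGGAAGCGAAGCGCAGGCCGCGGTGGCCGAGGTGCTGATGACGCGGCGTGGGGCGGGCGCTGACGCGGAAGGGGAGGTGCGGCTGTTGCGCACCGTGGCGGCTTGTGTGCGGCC
Ndufb11: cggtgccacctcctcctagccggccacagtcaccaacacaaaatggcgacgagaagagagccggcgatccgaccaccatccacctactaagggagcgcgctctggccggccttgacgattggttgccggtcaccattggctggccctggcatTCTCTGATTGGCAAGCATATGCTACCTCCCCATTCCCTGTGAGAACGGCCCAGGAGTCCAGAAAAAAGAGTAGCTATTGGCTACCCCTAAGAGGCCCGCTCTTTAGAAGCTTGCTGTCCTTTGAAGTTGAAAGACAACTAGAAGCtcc
Abcc10: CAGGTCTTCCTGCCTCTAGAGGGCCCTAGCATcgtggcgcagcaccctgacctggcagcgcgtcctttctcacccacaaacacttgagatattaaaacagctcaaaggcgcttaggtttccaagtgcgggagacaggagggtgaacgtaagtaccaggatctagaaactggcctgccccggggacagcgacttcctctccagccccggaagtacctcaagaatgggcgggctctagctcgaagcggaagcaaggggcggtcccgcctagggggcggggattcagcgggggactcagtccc
Efcab11: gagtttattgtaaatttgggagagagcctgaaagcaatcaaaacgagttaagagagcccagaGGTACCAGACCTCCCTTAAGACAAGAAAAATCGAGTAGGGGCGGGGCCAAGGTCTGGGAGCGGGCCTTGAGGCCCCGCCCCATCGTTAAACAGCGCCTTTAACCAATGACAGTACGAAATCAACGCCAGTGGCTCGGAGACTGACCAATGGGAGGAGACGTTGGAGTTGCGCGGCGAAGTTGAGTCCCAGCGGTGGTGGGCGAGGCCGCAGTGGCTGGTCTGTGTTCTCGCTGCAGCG
Tmem106c: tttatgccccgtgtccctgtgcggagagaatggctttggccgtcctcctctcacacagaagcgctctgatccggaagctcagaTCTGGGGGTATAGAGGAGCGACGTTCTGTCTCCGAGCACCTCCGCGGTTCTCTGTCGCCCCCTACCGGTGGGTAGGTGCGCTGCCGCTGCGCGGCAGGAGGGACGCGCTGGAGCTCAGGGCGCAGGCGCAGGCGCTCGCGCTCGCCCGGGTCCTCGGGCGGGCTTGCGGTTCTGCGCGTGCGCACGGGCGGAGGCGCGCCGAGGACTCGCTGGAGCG
Rgs16: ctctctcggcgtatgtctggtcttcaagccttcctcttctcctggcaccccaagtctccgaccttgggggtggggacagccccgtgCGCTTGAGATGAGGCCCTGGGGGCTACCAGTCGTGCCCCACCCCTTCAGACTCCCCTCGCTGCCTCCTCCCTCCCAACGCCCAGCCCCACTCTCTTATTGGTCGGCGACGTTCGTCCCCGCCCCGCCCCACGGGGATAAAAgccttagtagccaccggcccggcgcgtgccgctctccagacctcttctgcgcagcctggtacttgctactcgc
Psmb5: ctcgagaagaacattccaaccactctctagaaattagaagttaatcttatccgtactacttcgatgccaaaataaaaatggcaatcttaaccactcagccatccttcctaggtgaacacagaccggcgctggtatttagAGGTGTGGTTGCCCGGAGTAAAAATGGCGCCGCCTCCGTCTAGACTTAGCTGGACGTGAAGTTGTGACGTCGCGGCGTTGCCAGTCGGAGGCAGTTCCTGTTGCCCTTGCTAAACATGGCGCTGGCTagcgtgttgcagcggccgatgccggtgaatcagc
The Harbi1 promoter lay on the plus strand of chr2:91710602-91710901, with 133 bases inside the region, and the promoter of Atg13 overlapped it on the other strand. The Ndufb11 promoter lay on the minus strand of chrX:20617570-20617869 and the whole region of 145 bp fell inside it, across the start. In Abcc10, on the minus strand of chr17:46327974-46328273, only the 32 bases farthest upstream were inside. The Efcab11 promoter, on the minus strand of chr12:99883393-99883692, was covered over 238 bases and that of Tmem106c, on the plus strand of chr15:97963979-97964278, over 217. The Rgs16 promoter was on the plus strand of chr1:153740103-153740402, with 141 bases inside, and ended its covered stretch 24 bp before the start. The Psmb5 promoter was on the minus strand of chr14:54617946-54618245 and held the entire region of 127 bp across the start.

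In the high-glucose libraries the regions were mostly weak peaks. Their rank is given as a percentile, the share of the library's 22149 peaks that were no stronger. Over the 359 regions its median came to 30.0 for high-glucose replicate 1, 30.9 for replicate 2 and 30.5 for replicate 3. Regions with a peak in all 5 libraries had medians of 73.2, 73.2 and 73.1 there, and all merged regions held by each library 50.6, 50.7 and 51.0. Low ranks were not particular to the high-glucose-only regions. Normal-glucose-only regions had medians of 29.7 in normal-glucose replicate 1 and 22.7 in normal-glucose replicate 3. Fold enrichment over the local background had medians of 5.33, 5.93 and 5.37 in the same libraries, where the medians over all peaks used were 6.41, 7.03 and 6.58. Only 13 regions reached the 50th percentile in every high-glucose library, and 130 fell under the 10th percentile in at least 1 of them.

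No single high-glucose library supplied the weak values. Replicate 1 was the weakest at 115 regions, replicate 2 at 122 and replicate 3 at 122. The gap between the strongest and the weakest percentile of a region had a median of 28.8 points and reached 65.4. The summits of the 3 peaks lay within 50 bp of each other at 168 regions and within 100 bp at 282, with a median spread of 55 bp. Region width had a median of 197 bp (interquartile range 157.5 to 246 bp), against 158 bp for the normal-glucose-only regions, which rest on fewer libraries, and 325 bp for regions in all 5 libraries.

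**Figure D1:**
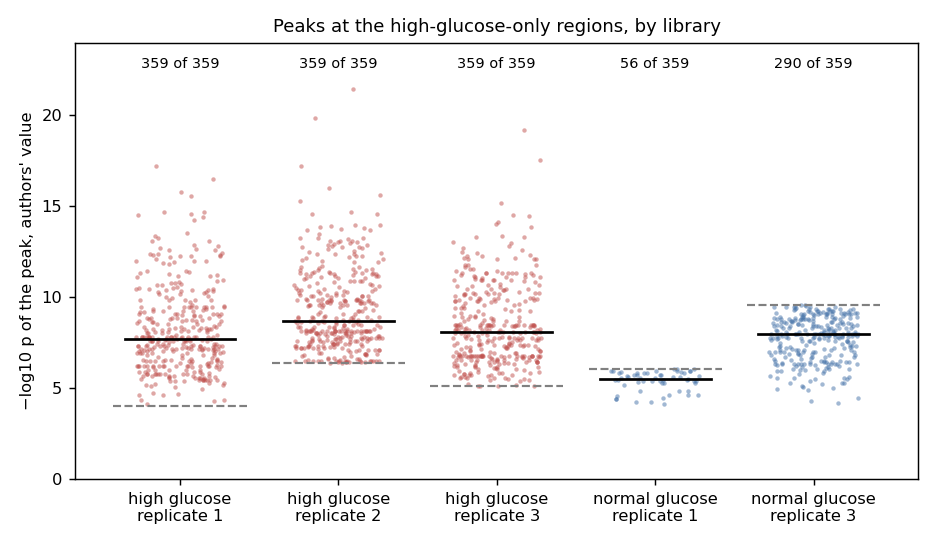
−log10 p of the authors' peaks at the 359 regions, 1 point per region, in high-glucose replicates 1, 2 and 3 and, for peaks beyond the equal length, in normal-glucose replicates 1 and 3. Solid lines are medians (7.74, 8.72 and 8.08 in high glucose, 5.53 and 7.98 in normal glucose), dashed lines the weakest value that counted as a peak, and the numbers on top the regions with a peak. The scale is each library's own.

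Most of the regions were not free of signal in normal glucose. A weaker peak beyond the equal length overlapped 296 of the 359 (82.5%, 95% Wilson interval 78.2 to 86.0%, counting error only). Normal-glucose replicate 3 held such a peak at 290 regions (80.8%) and normal-glucose replicate 1 at 56 (15.6%), with both at 50. Over all merged regions with no counted peak in the library, 49.4% held a weaker one in normal-glucose replicate 3 and 6.76% in normal-glucose replicate 1. The share in replicate 3 was also 67.0% at the 1447 regions with a peak in exactly 2 high-glucose and no normal-glucose library, and 37.6% at the 8142 with a peak in 1.

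In the authors' unscaled values, the weaker peaks of normal-glucose replicate 3 had medians near those of the high-glucose peaks. Normal-glucose replicate 3 had higher values throughout. Its counted peaks had a median −log10 p of 15.2 and a median fold enrichment of 9.08. In high-glucose replicates 1, 2 and 3 these medians were 9.48, 10.9 and 10.0 for −log10 p and 6.41, 7.03 and 6.58 for fold enrichment. Over all 359 regions the high-glucose medians of −log10 p were 7.74, 8.72 and 8.08, against 7.98 for the 290 weaker peaks of normal-glucose replicate 3, and their fold enrichment had a median of 5.51. At 104 of the 290 regions the fold enrichment in normal-glucose replicate 3 was below all 3 high-glucose values, at 154 it lay among them and at 32 it was above all 3. In normal-glucose replicate 1 it was below all 3 at 50 of 56 regions and among them at the other 6. The choice itself shapes these counts, since only normal-glucose peaks beyond the equal length can enter them. Their −log10 p was at most 6.05 in normal-glucose replicate 1 and 9.57 in normal-glucose replicate 3. The lists are not scaled to each other, and the part that depth plays in these counts was not tested. In bulk libraries, fewer cells with an open site and less opening per cell cannot be told apart.

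The remaining 63 regions (17.5%, interval 14.0 to 21.8%) had no peak at any rank in normal-glucose replicates 1 and 3. Among them were 30 within 1 kb of a gene start (47.6%), against 120 of the 296 with a weaker normal-glucose peak (40.5%). Genes whose starts held a high-glucose-only region and no normal-glucose peak of any rank numbered 12. Among them were Snai3, Nrtn, Psmb5, Hps4, Srrd, Gpr3, Cib2, Emc3, Fancd2 and 4933440N22Rik. At Snai3 a weaker peak of normal-glucose replicate 3 did overlap the region, but beyond the 1 kb window of the gene.

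A looser choice, which takes more than the 359 regions, was made with 1 library of each condition left out. Regions with a peak in 2 high-glucose libraries and none in 1 normal-glucose library were looked up in the 2 libraries that had no part in choosing them, which can be done in 6 ways with 1629 to 2303 regions each. The left-out high-glucose library held a peak at 55.4% of these regions on average, between 51.3% and 58.9%. The left-out normal-glucose library held one at 56.0%, between 48.9% and 62.7%. Over all 37553 merged regions, normal-glucose replicate 1 lacked a counted peak at 16276 and normal-glucose replicate 3 at 15670. The same counts for high glucose are not given here. High glucose minus normal glucose was −0.616 percentage points on average (SD 4.35 over the 6 combinations, which share libraries, so no p is given).

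The sign went with the normal-glucose library. With normal-glucose replicate 1 left out, the left-out high-glucose library held more, by 1.44, 6.14 and 1.22 points. With normal-glucose replicate 3 left out, the differences were −5.51, −4.20 and −2.77 points. The mean difference was smaller than its spread over the combinations.

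**Figure D2:**
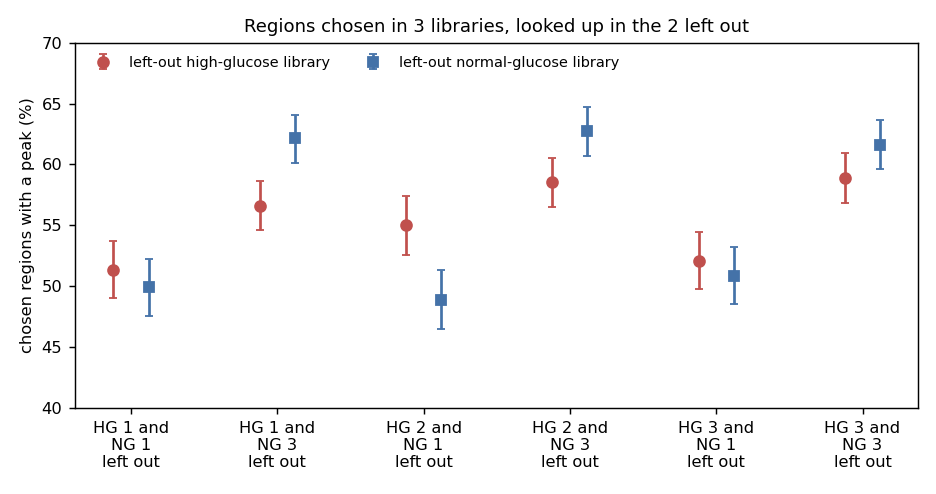
Share of regions with a counted peak in the left-out high-glucose library (circles, HG) and in the left-out normal-glucose library (squares, NG), for each of the 6 combinations. Bars are 95% Wilson intervals, counting error only, and the vertical axis starts at 40%. High glucose is above normal glucose in the 3 combinations that leave out normal-glucose replicate 1 and below it in the other 3.

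Gene starts were a common location. A start of a protein-coding gene lay within 1 kb of 150 of the 359 regions (41.8%, interval 36.8 to 46.9%), another 103 (28.7%) lay elsewhere in a gene and 106 (29.5%) between genes. For 4395 of the 21887 genes the reference tables gave no strand, and both ends stood in for the start. Normal-glucose-only regions had 92 of 608 at a start (15.1%, interval 12.5 to 18.2%), regions in all 5 libraries 62.5% and all merged regions 35.8%. Counted peaks of single libraries were at a start in 45.7%, 48.2% and 49.8% of cases in high-glucose replicates 1, 2 and 3, against 45.9% in normal-glucose replicate 1 and 44.9% in normal-glucose replicate 3.

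Peak strength moved with this share. By mean percentile, high-glucose-only regions under the 20th were at a start in 33.3% of cases, those from the 20th to the 40th in 33.5% and those from the 40th to the 60th in 59.8%. Normal-glucose-only regions in the same bands had 14.7%, 14.0% and 19.2%, and all merged regions 20.5%, 24.9% and 36.8%. The high-glucose-only share was above the normal-glucose-only share in each of these bands. The former regions rest on 3 libraries and the latter on 2, and the share also differed with the number of libraries. Regions in exactly 2 high-glucose and no normal-glucose library were at a start in 29.5% of cases, and those in 1 in 22.3%. The part that the number of libraries plays in the difference was not tested. Left without the 45 regions within 200 bp of a counted normal-glucose peak, the high-glucose-only share was 35.4%. No test was made, since regions of the same libraries are not replicates.

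**Figure D3:**
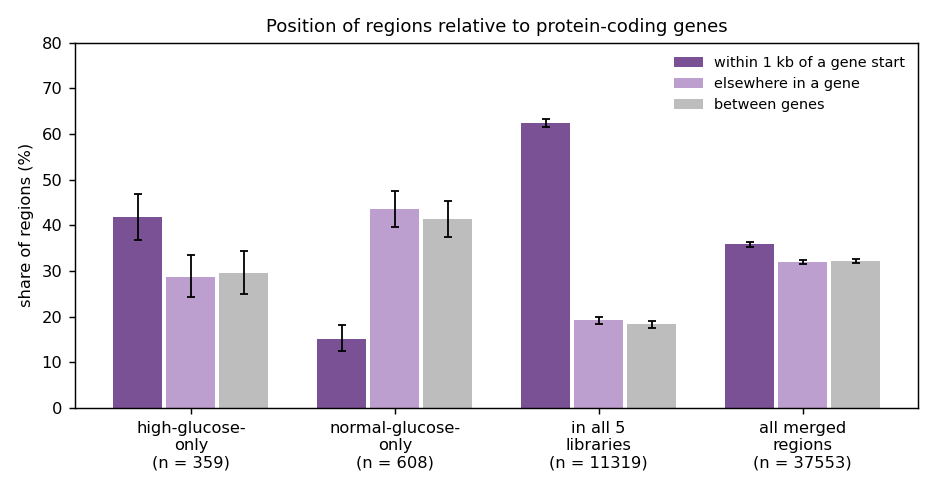
Share of regions within 1 kb of a gene start (either end where strand was not given), elsewhere in a gene and between genes, for high-glucose-only, normal-glucose-only, all-library and all merged regions. Bars start at 0 and carry 95% Wilson intervals, counting error only. The start share is 41.8% in the first group, 15.1% in the second and 62.5% in the third.

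Regions near gene starts lay on both sides of the start. For the 121 regions with a start of known strand within 1 kb, the midpoint lay within 200 bp of it in 77 and the region covered it in 61. Midpoints were upstream at 56 and downstream at 65, with a median of 10 bp downstream. Regions between genes were far from them, with a median distance of 36747 bp to the nearest gene and 23 of 106 over 100000 bp away.

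**Figure D4:**
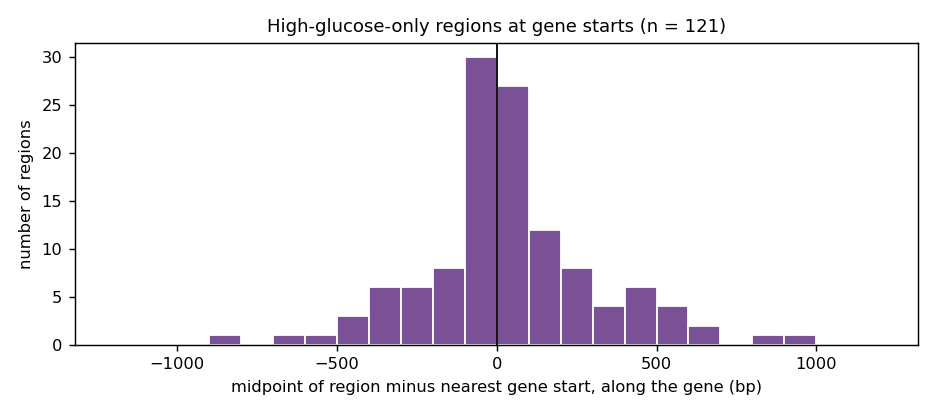
Distance of the midpoint of 121 high-glucose-only regions from the nearest gene start of known strand, in bp along the gene, in bins of 100 bp, with negative values upstream. The counts are highest in the 2 bins next to the start and fall off on both sides, with 56 midpoints upstream and 65 downstream.

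Promoters overlapped by the regions were rich in G and C. The 91 promoter sequences of 84 genes had a median GC content of 63.3% and a median of 25 CpG. Promoters overlapped by regions in all 5 libraries had 64.0% and 24, the 44 overlapped by normal-glucose-only regions 55.7% and 13, and all 21263 promoters 56.3% and 13. Both medians at high-glucose-only regions were nearer to those of promoters open in every library than to those of all promoters.

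Motifs were counted as letters on both strands, in windows of 300 bases. The GC box (GGGCGG), read by Sp and KLF factors, was in 70.3% of the promoters at high-glucose-only regions, against 76.5% at regions in all 5 libraries, 47.7% at normal-glucose-only regions and 46.2% of all promoters. The ETS letters (CCGGAAG) were in 17.6%, against 22.4% at regions in all 5 libraries and 11.6% of all promoters. The core of the CTCF motif (AGGGGGC) was in 16.5%, against 18.98% and 12.9% of the same sets. For cAMP-response elements, the short site (TGACGT) was in 15.4%, against 14.0% and 8.49%, and the full site (TGACGTCA), which contains it, in 3.30%, against 3.84% and 2.23%. The E-box (CACGTG) was in 11.0%, against 10.8% and 7.84%, and the antioxidant-response core (TGACNNNGC) in 14.3%, against 15.9% and 13.0%. With 91 promoters, the 95% Wilson interval left out the share of all promoters for the GC box (60.3 to 78.7%) and the short site (9.39 to 24.2%) alone among the 17 motifs searched. The 91 windows came from 84 genes and some of them overlap, so the same site can be counted more than once. This happened to the short site at Nfx1 and at Bysl and Med20. The intervals treat the windows as separate and are therefore too narrow, and the short site cannot be set apart by them.

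For the remaining motifs the share of all promoters follows. The CCAAT box (CCAAT) was in 37.4%, against 38.2%, the TEAD letters (GGAATG) in 13.2%, against 13.6%, and the YY1 letters (AAGATGGC) in 4.40%, against 3.05%. The TATA box (TATAAA) was in 7.69%, against 12.6%, the AP-1 site (TGANTCA) in 3.30%, against 6.99%, and the GATA letters (AGATAA) in 5.49%, against 9.65%. In 2 promoters or fewer of the 91 were NRF1 (GCGCATGC), in 2.20%, against 3.52%, RUNX (TGTGGTT), in 2.20%, against 4.71%, ZBTB33 (CTCGCGAG), in 2.20%, against 1.24%, and the HIF letters (TACGTG). The HIF letters share bases with the E-box and were in 1.10%, against 3.28%. A match is a run of letters and not a bound site.

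A high-glucose-only region lay at a start of 171 of 21887 protein-coding genes, or 0.781%. For comparison, 107 genes (0.489%) had any start peak in every high-glucose library and in no normal-glucose library, and 82 of these were among the 171. At 83 of the 171 the gene had no counted start peak in either normal-glucose library. At the remaining genes a counted normal-glucose peak lay within 1 kb of a start of the gene, not always the same start. Either end stood in where strand was not given.

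The strongest region by its weakest library was at Rgl2, an effector of Ras that activates Ral, on chr17:33929457-33929602, 292 bp upstream of the listed start. It had −log10 p values of 15.6, 21.5 and 14.5 in high-glucose replicates 1, 2 and 3, against 7.95 in normal-glucose replicate 3 and no peak in normal-glucose replicate 1. A counted peak of normal-glucose replicate 1 lay 203 bp away. Here and at the regions that follow, a normal-glucose library that is not named held no overlapping peak. Of the 12 highest regions, 6 lay within 250 bp of a counted normal-glucose peak, against 56 of all 359 (15.6%). The distance used elsewhere is 200 bp. Within it were 5 of the 13 regions that reached the 50th percentile in every high-glucose library, against 45 of all 359 (12.5%).

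The same held at Nsd2, Adk and Abcc10. Nsd2, a histone H3 lysine methyltransferase, had its region on chr5:33820516-33820975 with −log10 p values of 17.2, 13.5 and 11.3 in high-glucose replicates 1, 2 and 3, against 7.85 in normal-glucose replicate 3; counted normal-glucose peaks lay 91 and 87 bp away in replicates 1 and 3. Adk encodes adenosine kinase and shares the region on chr14:21052825-21052986 with Ap3m1, a subunit of an endosomal adaptor. There the −log10 p values were 10.4, 12.8 and 11.1 in high glucose, against 5.83 and 7.43 in normal-glucose replicates 1 and 3. The strongest start peak of Adk stood at percentiles of 88.2, 91.2 and 93.1 in high glucose and 91.1 and 90.5 in normal glucose, so the gene start itself was open in both.

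Abcc10, an efflux transporter of the ABC family, had its region on chr17:46328242-46328401 with −log10 p values of 10.4, 16.0 and 11.8 in high glucose, against 9.07 in normal-glucose replicate 3, with counted peaks of normal-glucose replicates 1 and 3 lying 75 and 68 bp away. The strongest start peak of Abcc10 stood at percentiles of 71.0, 72.6 and 61.3 in high glucose and 84.2 and 76.3 in normal glucose. Ndufb11, an accessory subunit of mitochondrial complex I, and Rbm10, a splicing regulator, share a region on chrX:20617573-20617717. It had −log10 p values of 14.7, 13.8 and 11.3 in high glucose, against 7.75 in normal-glucose replicate 3, and a counted peak of normal-glucose replicate 1 lay 55 bp away. Ptma, which encodes a small acidic nuclear protein, held a region inside the gene on chr1:86528341-86528454 with −log10 p values of 10.6, 11.3 and 11.2 in high glucose and no overlapping normal-glucose peak, but counted ones 85 and 92 bp away.

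The shared start of Atg13 and Harbi1 differed in this respect. Atg13 is a subunit of the kinase complex that starts autophagy, and Harbi1 derives from a transposase. Their region on chr2:91710769-91710955 had −log10 p values of 12.6, 13.3 and 13.4 in high-glucose replicates 1, 2 and 3, against 5.65 and 7.98 in normal-glucose replicates 1 and 3. The nearest counted normal-glucose peak was 19277 bp away. The choice capped the normal-glucose values at 6.05 in replicate 1 and 9.57 in replicate 3, so the order of the values is no separate result.

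Msi1 had no normal-glucose peak of any rank at its region. This RNA-binding protein of stem and progenitor cells held its region inside the gene on chr5:115429538-115429660 with −log10 p values of 10.5, 13.0 and 11.2, summits within 7 bp and the nearest counted normal-glucose peak 54712 bp away.

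Other regions among the 12 were of different kinds. Efcab11, with an EF-hand domain, and Tdp1, which clears trapped topoisomerase from DNA, share a region on chr12:99883353-99883630 with −log10 p values of 12.7, 11.1 and 12.3 in high glucose, against 8.49 in normal-glucose replicate 3. A counted peak of normal-glucose replicate 1, at a percentile of 43.9, lay 744 bp away at the start of both genes. A pair on chr5 lay between genes in the neighbourhood of the multicopy Speer4 family, near Speer4f2 (237483 bp away) and Speer4d (3920 bp away). They had −log10 p values of 10.7, 13.1 and 12.1, and 11.9, 11.2 and 11.4, in high glucose, against 6.35 and 6.30 in normal-glucose replicate 3. Whether reads from repeated sequence contribute to these peaks was not tested.

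**Figure D5:**
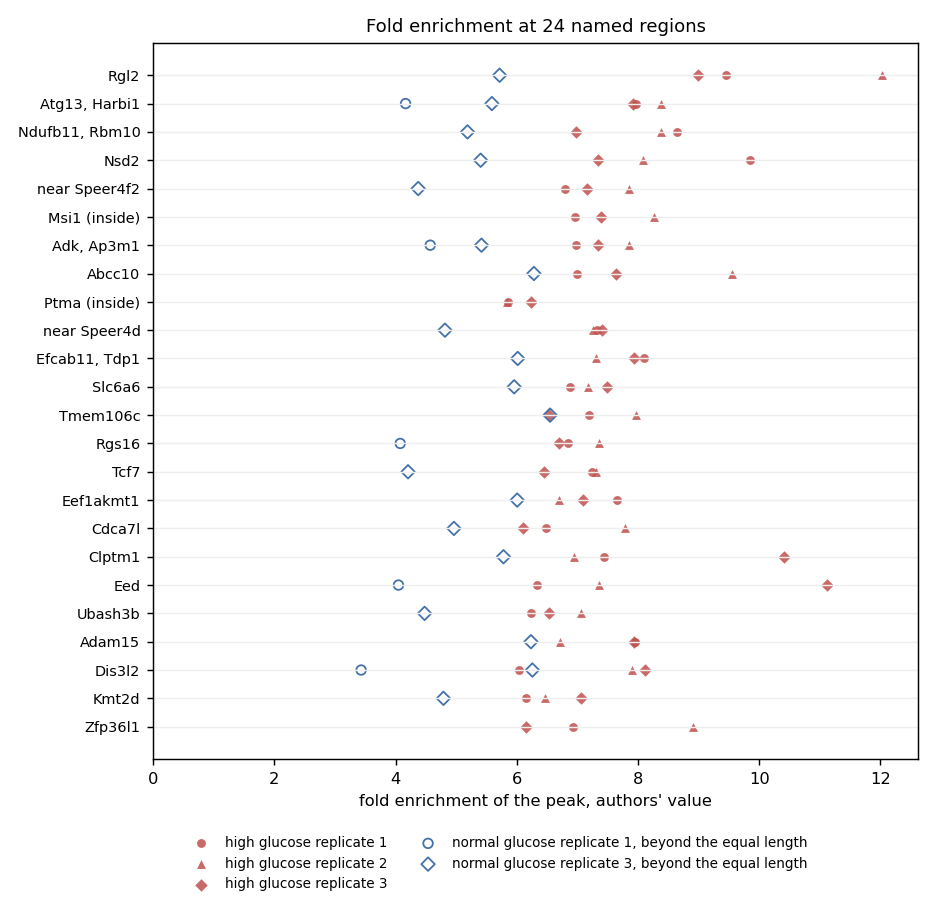
Fold enrichment of the authors' peaks at 24 of the named regions, in order of the weakest high-glucose rank from top to bottom. Filled symbols are high-glucose replicates 1 to 3, and open symbols are peaks of normal-glucose replicates 1 and 3 that lay beyond the equal length; no open symbol means no peak in that list. Msi1, Ptma and Zfp36l1 have none, and at Tmem106c the open symbol of normal-glucose replicate 3 (6.55) coincides with high-glucose replicate 3 (6.54).

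Next in rank came regions at genes whose starts held no counted normal-glucose peak. Slc6a6, the taurine transporter, had −log10 p values of 10.3, 11.0 and 11.6 in high-glucose replicates 1, 2 and 3, against 8.51 in normal-glucose replicate 3. No strand was given for Slc6a6, so the gene end that its region covers may not be the start. Rgs16, which speeds GTP hydrolysis by G proteins, had −log10 p values of 10.2, 11.2 and 9.86, against 5.39 in normal-glucose replicate 1 and no peak in replicate 3. Tmem106c had −log10 p values of 10.8, 12.4 and 9.90, against 9.55 in normal-glucose replicate 3, where the peak missed the equal length by little, at rank 22260. The gaps at Rgs16 and Tmem106c cannot be compared, since their normal-glucose values come from different libraries. A peak beyond the equal length was at most 6.05 in normal-glucose replicate 1 and 9.57 in normal-glucose replicate 3.

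Further regions of this kind were at Clptm1, Cdca7l, Eef1akmt1, Adam15, Dis3l2 and Ubash3b. Clptm1 had −log10 p values of 11.3, 10.3 and 17.6 in high glucose, against 8.07 in normal-glucose replicate 3. Cdca7l had −log10 p values of 9.72, 12.0 and 9.60, against 7.02 in normal-glucose replicate 3. Ubash3b, a tyrosine phosphatase that damps receptor signalling, had −log10 p values of 9.09, 10.7 and 9.90, against 5.80 in the same library. Eef1akmt1 methylates a translation elongation factor, Adam15 is a membrane metalloprotease and Dis3l2 an exonuclease for uridylated RNA. At these 3 genes the lowest high-glucose −log10 p values were 10.4, 9.90 and 8.65, against 9.24, 8.91 and 9.16 in normal-glucose replicate 3. The groups overlapped at Dis3l2 alone of the 3. At Eef1akmt1 and Adam15 the choice left no room for overlap, since it capped the values of normal-glucose replicate 3 at 9.57. Normal-glucose replicate 1 also held a weaker peak at Dis3l2, with a −log10 p of 4.56. For Eef1akmt1 no strand was given, so the gene end that its region covers may not be the start.

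Psmb5, the proteasome subunit with chymotrypsin-like activity, had −log10 p values of 7.82, 14.0 and 10.2 in high-glucose replicates 1, 2 and 3 on chr14:54617980-54618106, and no normal-glucose peak overlapped it or lay at its start. The nearest counted normal-glucose peak was 14370 bp away. Nrtn, a ligand of the GDNF family, and Gpr3, a constitutively active receptor, were alike in this. Nrtn had −log10 p values of 8.18, 11.1 and 8.95 and Gpr3 −log10 p values of 9.10, 12.8 and 8.13 in high glucose. These 3 genes were named after their values were seen.

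Of 794 genes in 27 lists for the cushion, glucose handling, stress and chromatin, 13 had a high-glucose-only region at a start (1.64%, against 0.781% of all genes). In 17 of the lists no gene did. Those lists include glycolysis and glucose uptake (0 of 36), insulin and IGF signalling (0 of 24), the polyol, hexosamine and methylglyoxal pathways (0 of 13), Notch signalling (0 of 30), nitric oxide signalling (0 of 20), Hippo and YAP (0 of 22), the hypoxia response (0 of 18) and the cell cycle (0 of 36). Starts of 26 of the 36 glycolysis genes (72.2%) had peaks in all 5 libraries, against 35.3% of all protein-coding genes. The cell cycle list was alike, with 77.8%, as was the hypoxia response, with 72.2%.

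Wnt and Hedgehog signalling had 3 of 33 genes. Tcf7, an HMG-box factor at the end of the Wnt pathway, had −log10 p values of 10.9, 11.0 and 9.65 in high-glucose replicates 1, 2 and 3 on chr11:52283309-52283475, against 5.24 in normal-glucose replicate 3. Tbl1xr1, a subunit of the NCoR corepressor complex, had −log10 p values of 8.07, 9.25 and 8.02 on chr3:22076105-22076524, with no normal-glucose peak overlapping it. Gsk3a, a kinase of the Wnt and insulin pathways, had −log10 p values of 12.1, 7.98 and 11.0, against 7.77 in normal-glucose replicate 3. At Gsk3a counted normal-glucose peaks lay 198 and 200 bp away, and the strongest start peak of the gene stood at percentiles of 90.0, 88.8 and 90.7 in high glucose and 91.4 and 74.6 in normal glucose.

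Histone methylation and demethylation also had 3 of 37 genes, Nsd2, Eed and Kmt2d. Eed, the subunit of the Polycomb complex that binds methylated histone H3, had −log10 p values of 9.10, 11.2 and 19.2 in high glucose on chr7:89980910-89981067, against 5.31 in normal-glucose replicate 1. A counted peak of normal-glucose replicate 3 lay 103 bp away. Kmt2d, an enhancer histone methyltransferase and the 1 gene found of 34 in the congenital heart disease list, had −log10 p values of 8.83, 9.59 and 10.6, against 6.26 in normal-glucose replicate 3, and counted normal-glucose peaks lay 229 bp away. All 3 of these genes therefore had counted normal-glucose peaks at the same start, or for Nsd2, which had no strand given, at the same gene end.

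Single genes came from 7 further lists. Twist1, a transcription factor of cushion mesenchyme and 1 of 57 cushion and valve genes, had −log10 p values of 6.63, 7.48 and 7.21 in high glucose on chr12:33957754-33958025, against 5.32 in normal-glucose replicate 3, which also held a counted peak 93 bp away. S100a4, a calcium-binding protein of fibroblasts, had −log10 p values of 6.37, 11.2 and 8.36, against 8.75 in normal-glucose replicate 3, which lies among the high-glucose values. Prkaa2, a catalytic subunit of the energy sensor AMPK, had −log10 p values of 9.21, 8.64 and 12.1, against 8.67 in normal-glucose replicate 3, which likewise lies among them.

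Sod1, Hsp90ab1 and Zfp36l1 had no overlapping normal-glucose peak. Sod1, the cytosolic superoxide dismutase, had −log10 p values of 12.3, 7.64 and 15.2 in high-glucose replicates 1, 2 and 3. Counted peaks of normal-glucose replicates 1 and 3 were 252 and 150 bp away, and the strongest start peak of Sod1 stood at percentiles of 72.3, 88.2 and 84.2 in high glucose and 81.8 and 61.1 in normal glucose. Hsp90ab1, a constitutive chaperone, had −log10 p values of 7.25, 12.9 and 8.41, with a counted peak of normal-glucose replicate 3 432 bp away. No strand was given for Hsp90ab1, so the gene end that its region covers may not be the start. Zfp36l1, which directs the decay of AU-rich mRNA, had −log10 p values of 10.4, 14.6 and 8.74, with a counted peak of normal-glucose replicate 1 140 bp away. The last of the single genes was Psmb5, 1 of 37 proteasome genes.

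At the threshold, regions on either side differed by very little. The 3 regions that only just qualified were near Hnmt, Mettl8 and Trpc4, with peaks at ranks 22110, 22112 and 22119 of 22149 in high-glucose replicate 3, each with a −log10 p of 5.14. Just outside for want of a high-glucose peak were regions near Cldn34d, Stard13 and Sv2c, at ranks 22151, 22163 and 22176 in the same library with −log10 p values of 5.14, 5.11 and 5.10. Just outside because of a counted normal-glucose peak were regions near Mertk, at rank 22147 of normal-glucose replicate 3 with a −log10 p of 9.57, and near 6820408C15Rik and Dst, at ranks 22146 and 22047 of normal-glucose replicate 1 with 6.05. Inside, with a peak of normal-glucose replicate 3 just past the equal length, were regions near 2610301B20Rik, Gxylt2 and Tmem121, at ranks 22160, 22231 and 22255 with −log10 p values of 9.57, 9.56 and 9.55.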

How the data were processed

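Peak lists of 6 ATAC-seq libraries from 50 bp paired-end reads were used, 1 list per library, grouped by the labels. Per the submitters' processing notes, which give no roles, the tools were MACS2 2.1.0, DiffBind 1.12.3, Bowtie 1.0.0, cutadapt 1.0, Picard 1.90, SAMtools 0.1.19 and FastQC, with the build mm10. The sources used here do not say how duplicates, mitochondrial reads or the transposase offset were handled. Each deposited peak has the authors' −log10 p-value, −log10 q-value, ratio of fold enrichment and score, none of them scaled between libraries. Depth is unknown, since the lists hold no read counts, and a longer list can come from a deeper library. Presence, rank and position were compared, and values of −log10 p and fold enrichment are set side by side between libraries as a description.

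Chromosomes 1 to 19, X and Y were kept. The equal length, 22149, is that of the shortest list used, and ties went by chromosome and start. Genes, promoters and strand came from RefSeq tables of GRCm38.p6; 17492 of 21887 protein-coding genes had a listed start. The code that takes the regions was checked on simulated lists with a known pattern. That is a check of the code and not of how reliable the regions are. Analyses used Python 3.11.15, pandas 2.3.3 and SciPy 1.17.1. No p-values were computed, because the regions were chosen on these libraries.

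The regions and gene lists were chosen with earlier results of these data known. The named regions were the 12 with the highest percentile in their weakest high-glucose library, up to 20 more at genes of the lists, the 12 highest at genes without a counted normal-glucose start peak, and 3 on each side of the threshold. Results for some regions that the rule takes are not reported here. Sequences were printed for the 6 highest that overlapped a promoter. Alternatives changed list length, ranking, merging, window and libraries.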

Additional observations from a re-analysis of the deposited data

How the results depend on the processing

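The number of regions depended on list length. With all peaks of each list there were 82 regions at 42 genes, with a median width of 179 bp; with the 10000 highest there were 219, of which 68.9% were at a gene start, and the width was 268 bp; with the 15000 highest 61.5% were at a start and the width was 238 bp. A −log10 q of at least 5 left 51 regions, 58.8% of them at starts of 34 genes. Summits widened by 100 bp gave a width of 259 bp. Merging within 200 bp put 36.2% at a start, with a width of 215 bp, listed starts alone 33.7%, and leaving out regions within 200 bp of a counted normal-glucose peak, an alternative chosen after seeing the data, 35.4%. Leaving out 1 library in turn gave 833 to 1276 regions, over 1.5 times the count in each case and most without normal-glucose replicate 3, 31.6% to 43.3% at a start, 297 to 607 genes and widths of 156 to 210 bp. The difference between left-out libraries ran from −5.51 to 6.14 points over the combinations and was −13.5 with all peaks; the cause was not tested. Under the other lengths and rankings it was −1.11 to 3.02. Ranking by fold enrichment or q, an overlap of 50 bp, windows of 500 bp and 2.5 kb and the requirement that normal-glucose replicate 2 be empty changed the number of regions by less than 1.5 times and left the start share inside its interval. Counting normal-glucose peaks within 200 bp put the share of regions with a weaker peak at 83.6%. No paired analysis was possible because none of the results comes from a test over libraries.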

Other observations

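A cluster of regions lay at Atxn1, the gene of a transcriptional regulator, where the only 3 high-glucose-only regions within 10000 bp of another were found, all on chromosome 13. Their −log10 p values were 12.3, 17.2 and 7.78 at the strongest, 6.51, 9.73 and 7.78 at the next, 127 bp from it, and 6.43, 8.69 and 6.60 at the last, in high-glucose replicates 1, 2 and 3. Each held a weaker peak in normal-glucose replicate 3, at ranks 25771, 22312 and 32049.

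By chromosome, the share of merged regions that were high-glucose-only was highest on chromosome 12, with 22 of 1249 (1.76%), and lowest on chromosome 19 among those with any, with 8 of 1471 (0.544%).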
